A study of Mus musculus with 18 samples.

Results

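The levels of 10 fibroblast marker genes were followed in RNA from the apex of the mouse heart, read by sequencing. The genes were the rows of the count table named Postn, Cthrc1, Tnc, Fap, Fn1 and Meox1, taken as markers of activated fibroblasts, and Pi16, Mfap5, Pdgfra and Tcf21, taken as markers of resident fibroblasts. They were 10 of 54532 genes in the table, and 10 of 10 were among the 17876 genes that passed the filter on low counts. The series addressed how raising lamin C or lamin A through an rAAV9 vector, a recombinant adeno-associated virus, acts on hearts in which Lmna was knocked down to model dilated cardiomyopathy.

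Batch LC held 3 libraries labelled Lmna shRNA+Lamin C (lamin C hearts), 3 labelled Lmna shRNA (shRNA hearts) and 3 labelled control. Batch LA held 3 libraries labelled Lmna shRNA+Lamin A (lamin A hearts), 3 labelled Lmna shRNA and 3 labelled control. The genotype was labelled WT in all 18 libraries, and the shRNA carried the name L881 in the titles. What the control hearts received, the ages of the mice, the promoters of the vectors and the cells they reached are not given in the sources used here. In the deposited column names, the third control of batch LC and the third control of batch LA carry consecutive numbers that lie apart from those of the other libraries of their batches. The labels do not say what sets them apart, and values without both are given where a call changed. Each lamin was given in 1 batch, so lamin and batch cannot be told apart beyond what the shRNA and control hearts of the batch show. The labels do not say whether the 3 libraries of a group came from separate animals, so p-values measure only the spread between these libraries.

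Resident cardiac fibroblasts keep the collagen network of the heart, and those of the mouse are marked by the transcription factor Tcf21 and the receptor Pdgfra. After injury or under load they divide and enter an activated, matrix-secreting state marked by periostin (Postn), and Cthrc1 marks the fibroblasts that make most matrix in scars. Pi16 and Mfap5 mark fibroblasts of the adventitia and of other connective tissue sheaths.

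Libraries held between 31418657 and 41259968 counts, and levels are given as CPM, counts relative to the library total after TMM scaling, which assumes that most genes do not change. Mitochondrially encoded genes took 12.96% to 15.62% of the counts in shRNA hearts, 20.31% to 24.78% in lamin hearts and 25.19% to 27.02% in controls. Without TMM scaling the median of all genes moved to a log2 change of 0.47 in batch LC and 0.48 in batch LA between shRNA hearts and controls, to -0.36 between lamin C and shRNA hearts and to -0.21 between lamin A and shRNA hearts. Lmna, the targeted gene, averaged 128 ± 11.9 CPM in shRNA hearts and 124 ± 4.47 CPM in controls of batch LC (SD, n = 3 each), and 126 ± 4.33 CPM in shRNA hearts and 117 ± 4.68 CPM in controls of batch LA. The log2 difference between shRNA hearts and controls was 0.08 ± 0.06 over both batches (adjusted p = 0.211 in edgeR's quasi-likelihood test), so the libraries labelled Lmna shRNA did not show a lower Lmna level. Gene counts do not separate Lmna of the heart from transcripts of the vectors. Lmna averaged 1252 ± 165 CPM in lamin C hearts and 531 ± 27.4 CPM in lamin A hearts. In controls 8 of 8 cardiomyocyte genes (among them Myl2, Pln and Tnni3) averaged 1 CPM or more. The same held for 8 of 8 endothelial, 8 of 8 macrophage and 8 of 8 pericyte and smooth muscle genes. This count therefore does not test the tissue label.

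Promoter sequences are shown for 4 members whose levels parted in the comparisons that follow: Postn and Tnc, activated markers that moved apart in lamin A hearts, and Pdgfra and Tcf21, resident markers that moved apart there. Each is the 250 bases before a transcription start in RefSeq (GRCm38.p6), written 5′ to 3′ on the strand of the gene, with the TATA box letters TATAAA and the E-box letters CANNTG in capitals. RefSeq windows were matched for 5 of 10 members (Postn, Tnc, Pdgfra, Tcf21 and Pi16), and those of Cthrc1, Fap, Fn1, Meox1 and Mfap5 are not shown.
Postn, chr3:54360857-54361106, plus strand: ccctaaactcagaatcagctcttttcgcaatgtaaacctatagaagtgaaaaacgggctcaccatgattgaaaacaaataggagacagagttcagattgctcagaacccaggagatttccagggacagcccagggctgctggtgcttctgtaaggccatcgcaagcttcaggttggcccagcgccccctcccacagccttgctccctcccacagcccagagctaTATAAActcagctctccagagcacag
Tnc, chr4:64047016-64047265, minus strand: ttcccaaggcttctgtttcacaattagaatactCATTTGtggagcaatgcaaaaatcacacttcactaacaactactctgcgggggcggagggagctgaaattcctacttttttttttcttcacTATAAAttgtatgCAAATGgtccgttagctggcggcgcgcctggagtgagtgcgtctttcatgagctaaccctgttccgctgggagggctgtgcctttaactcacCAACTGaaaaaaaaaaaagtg
Pdgfra, chr5:75152001-75152250, plus strand: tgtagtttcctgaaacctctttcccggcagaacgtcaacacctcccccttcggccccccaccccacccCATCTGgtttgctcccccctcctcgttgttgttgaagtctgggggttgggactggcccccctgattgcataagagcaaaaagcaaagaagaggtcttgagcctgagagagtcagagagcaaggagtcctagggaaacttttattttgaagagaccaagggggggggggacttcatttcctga
Tcf21, chr10:22820144-22820393, minus strand: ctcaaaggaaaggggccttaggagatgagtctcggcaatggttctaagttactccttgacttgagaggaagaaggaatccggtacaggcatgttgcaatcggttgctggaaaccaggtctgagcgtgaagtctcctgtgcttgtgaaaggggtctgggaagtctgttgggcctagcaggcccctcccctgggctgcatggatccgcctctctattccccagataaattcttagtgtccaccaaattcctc

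On either strand, TATAAA occurred in the shown windows of Postn, beginning 26 bases before the start, and of Tnc, beginning 126 bases before it. RefSeq held another window for each of these genes, not shown, whose start lay farther from the gene's edge (1842 bases for Postn, 79 for Tnc). That of Postn had 0 matches to TATAAA and to the E-box letters. That of Tnc had TATAAA beginning 205 bases before its start, and 2 E-boxes. The TATAAA letters were present in 12.4% of 32851 RefSeq windows of that length. The E-box letters, which bHLH factors such as Tcf21 bind, occurred 3 times in the shown Tnc window and 1 time in the Pdgfra window, and in 66.2% of all windows. The letters of an AP-1 site (TGANTCA, in 6.75% of windows), of a TEAD site (GGAATG, 12.6%), of a SMAD palindrome (GTCTAGAC, 0.167%), of a homeodomain core (TAATTA, 4.84%) and of a CArG box (1.47%) had no match in the 7 windows of the 5 members. These matches describe letters in the windows and were not tested as binding sites.

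In shRNA hearts 10 of 10 markers were higher than in controls in each batch. Cthrc1, with 1 to 6 counts in control libraries, passed the filter on low counts only through groups in which it was high. Its calls against controls, here and below, are therefore not independent of the filter. The 10 of 10 called members stood against a background of 33.3% of all tested genes called higher in batch LC and 32.4% in batch LA, and of 29.6% and 29% called lower. In either direction 62.9% of genes were called in batch LC and 61.4% in batch LA. This split depends on the scaling: by library totals, without TMM, 58.3% of genes were called higher and 13.5% lower in batch LC, and 59.5% higher and 12.7% lower in batch LA. The 3 shRNA and 3 control libraries did not overlap for 10 of 10 members in both batches, as was the case for 64.9% of genes in batch LC and 67.8% in batch LA. The median log2 change of the members was 2.89 in batch LC and 2.84 in batch LA, where the medians of all genes were 0.05 and 0.05. The activated markers had a median of 4.05 in batch LC and 4.0 in batch LA, and the resident markers 1.69 and 1.47. In heart tissue taken whole, more cells of a type and more RNA per cell cannot be told apart.

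**Figure D1:**
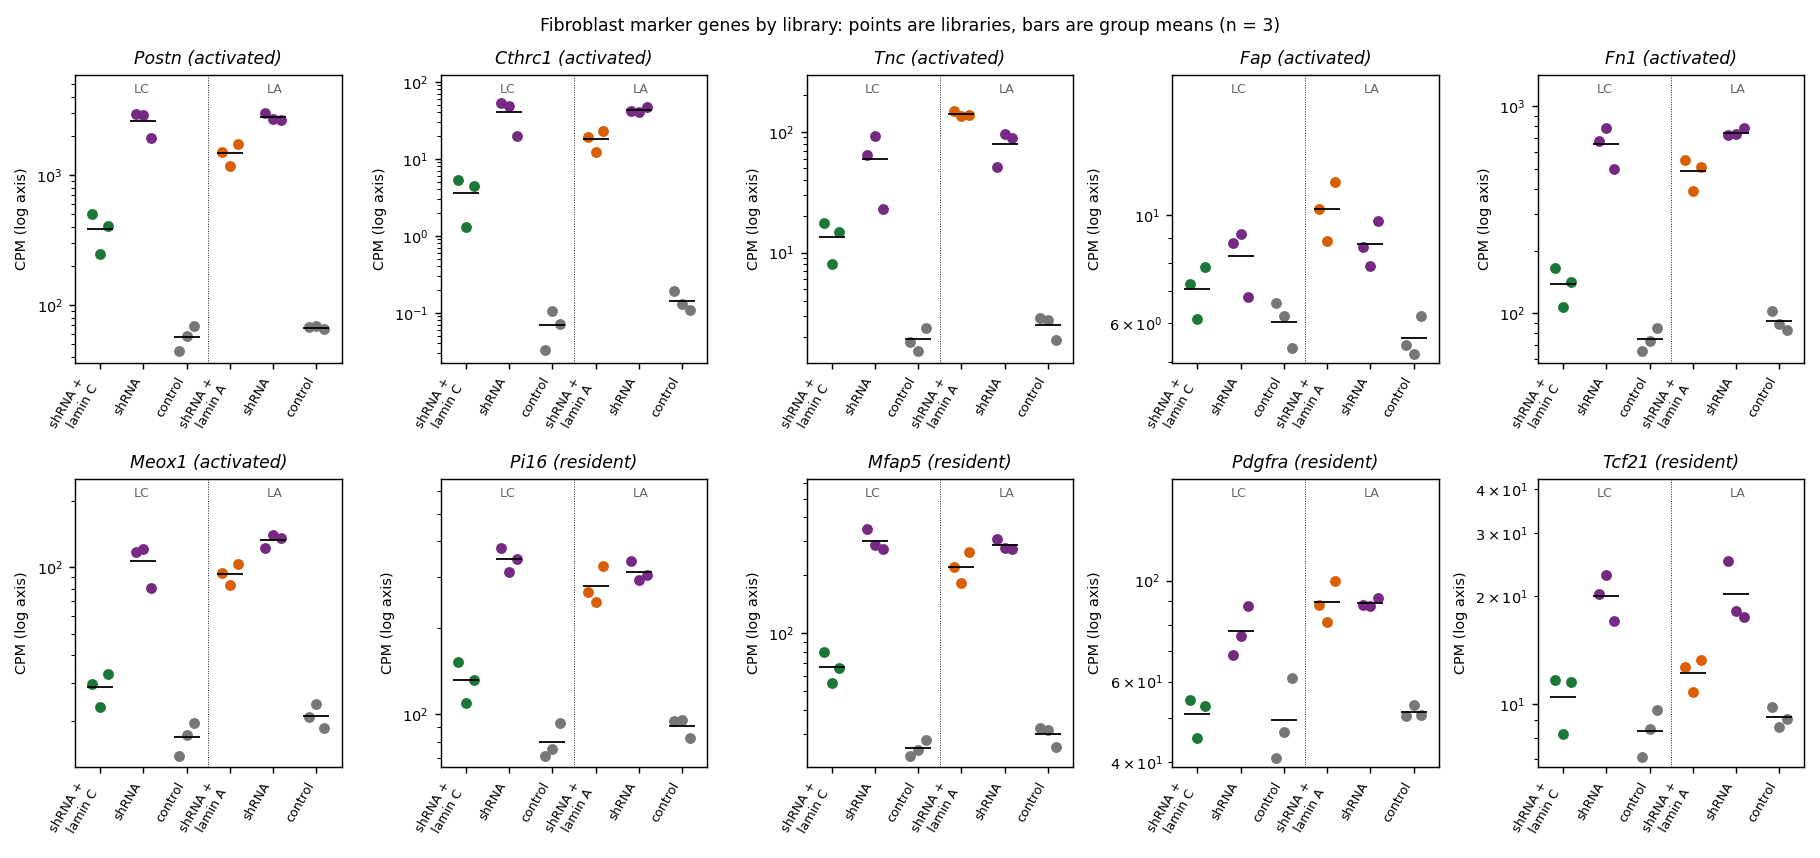
CPM (log axis) of each marker in every library, with batch LC to the left of the dotted line and batch LA to the right; points are libraries and bars are means of 3. For Postn the shRNA libraries sit between 1920 and 2998 CPM, the lamin A libraries between 1180 and 1743, the lamin C libraries between 249 and 498 and the controls between 44.7 and 69.0.

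Postn encodes periostin, a matricellular protein that activated fibroblasts secrete. It had 2939, 2894 and 1920 CPM in shRNA hearts of batch LC, against 44.7, 58.5 and 69.0 CPM in controls, and 2998, 2718 and 2645 CPM in shRNA hearts of batch LA, against 67.9, 68.7 and 65.1 CPM in controls. The third shRNA library of batch LC was the lowest of the 6, and still lay above every control. The log2 change was 5.49 ± 0.24 (SE) in batch LC, with an adjusted p of 9.38e-13 in edgeR's quasi-likelihood test, and 5.37 ± 0.24 in batch LA (adjusted p = 1.31e-12). In lamin C hearts Postn had 498, 249 and 408 CPM, below every shRNA library and above every control of its batch. Its log2 change was -2.75 ± 0.21 against shRNA hearts (adjusted p = 2.81e-09) and 2.75 ± 0.22 against controls (adjusted p = 2.01e-07). In lamin A hearts it had 1506, 1180 and 1743 CPM, a log2 change of -0.92 ± 0.20 against shRNA hearts (adjusted p = 0.00184) and of 4.46 ± 0.23 against controls (adjusted p = 5.38e-11).

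Cthrc1, collagen triple helix repeat containing 1, is a secreted protein of matrix-producing fibroblasts. It had 53.5, 48.9 and 19.8 CPM in shRNA hearts of batch LC, where the controls held 1, 3 and 2 counts. In batch LA it had 42.2, 40.6 and 47.0 CPM in shRNA hearts, where the controls held 6, 4 and 3 counts. Cthrc1 was therefore near the counting floor in controls (3 counts equal 0.0955 to 0.108 CPM there) and easily counted in every shRNA library. Over the 3 libraries of each group the scaled ratio of shRNA to control was 603 in batch LC (95% counting interval 277 to 1643) and 299 in batch LA (175 to 562). The interval covers counting error only. With 5.23, 1.28 and 4.38 CPM, lamin C hearts lay below the shRNA hearts without overlap, and the second library was the lowest. The log2 change against shRNA hearts was -3.52 ± 0.36 (adjusted p = 1.15e-07). With 19.2, 12.2 and 23.0 CPM, lamin A hearts also lay below their shRNA hearts, by a log2 change of -1.25 ± 0.31 (adjusted p = 0.00398). The counts still exceeded those of controls 50.8-fold in lamin C hearts (counting interval 23.1 to 139) and 126-fold in lamin A hearts (73.5 to 237).

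Tnc encodes tenascin C, a matricellular protein made at sites of injury and tissue remodelling and scarce in the healthy adult heart. It had 64.5, 92.1 and 22.9 CPM in shRNA hearts of batch LC, against 1.83, 1.54 and 2.36 CPM in controls, and 51.4, 95.2 and 89.2 CPM in shRNA hearts of batch LA, against 2.87, 2.74 and 1.88 CPM in controls. Its spread among shRNA libraries was wide, lowest in the third library of batch LC and in the first of batch LA, but no shRNA library came near a control. The log2 change was 4.97 ± 0.46 in batch LC (adjusted p = 1.5e-08) and 4.97 ± 0.44 in batch LA (adjusted p = 8.76e-09). In lamin C hearts Tnc had 17.7, 7.97 and 14.8 CPM, a log2 change of -2.16 ± 0.36 against shRNA hearts (adjusted p = 3.93e-05) and of 2.81 ± 0.49 against controls (adjusted p = 7.47e-04). In lamin A hearts it had 148, 136 and 137 CPM, above each of the 6 shRNA libraries. Their log2 difference from shRNA hearts of batch LA was 0.84 ± 0.32, which did not pass the threshold over all genes (adjusted p = 0.0558) although the groups did not overlap. The difference was called in 2 of 15 other settings, a fit of these 2 groups alone (adjusted p = 0.00274) and a fit without the filter on low counts (0.85, adjusted p = 4.54e-29). The latter p is out of scale with the other settings at a like difference, and is not read as support. In the remaining settings the difference was not called, with an adjusted p of up to 0.22. By library totals it was 0.63 (adjusted p = 0.126). Against controls the log2 difference was 5.81 ± 0.45 (adjusted p = 4.44e-09).

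Fn1 encodes fibronectin, an adhesive matrix glycoprotein made by several cell types. It had 682, 787 and 498 CPM in shRNA hearts of batch LC, against 65.3, 73.2 and 85.2 CPM in controls, and 726, 733 and 783 CPM in shRNA hearts of batch LA, against 102, 88.9 and 82.4 CPM in controls. All shRNA libraries lay several-fold above all controls, with a log2 change of 3.14 ± 0.18 in batch LC (adjusted p = 1.18e-11) and 3.04 ± 0.17 in batch LA (adjusted p = 1.89e-11). In lamin C hearts it fell to 166, 107 and 141 CPM, against the shRNA values above, a log2 change of -2.25 ± 0.17 (adjusted p = 1.59e-09), and stayed 0.89 ± 0.16 above controls (adjusted p = 0.00117). In lamin A hearts it had 552, 391 and 511 CPM, a log2 change of -0.62 ± 0.16 against shRNA hearts (adjusted p = 0.00586) and 2.41 ± 0.17 against controls (adjusted p = 1.56e-09).

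Fap encodes fibroblast activation protein, a cell-surface serine protease used as a target on activated cardiac fibroblasts. Its change was the smallest of the activated markers in both batches. It had 8.77, 9.17 and 6.80 CPM in shRNA hearts of batch LC, against 6.6, 6.21 and 5.33 CPM in controls, and 8.64, 7.86 and 9.76 CPM in shRNA hearts of batch LA, against 5.41, 5.19 and 6.20 CPM in controls. The shRNA and control libraries did not overlap, but in batch LC the third shRNA library lay just above the first control. The log2 change was 0.45 ± 0.14 in batch LC (adjusted p = 0.00946) and 0.65 ± 0.14 in batch LA (adjusted p = 5.39e-04). The call in batch LC was lost without the third control library, and without both controls numbered 3 (adjusted p = 0.0532 in each). Fap had 7.23, 6.12 and 7.84 CPM in lamin C hearts, which overlapped both shRNA hearts and controls, with a log2 difference of -0.23 ± 0.14 from shRNA hearts (adjusted p = 0.172) and 0.22 ± 0.14 from controls (adjusted p = 0.343). It had 10.3, 8.87 and 11.7 CPM in lamin A hearts, which overlapped the shRNA hearts (log2 difference 0.24 ± 0.13, adjusted p = 0.199) and lay 0.88 ± 0.14 above controls (adjusted p = 3.65e-05).

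Meox1 is a homeobox transcription factor that is switched on in stressed mouse hearts and takes part in fibroblast activation. It had 117, 121 and 80.5 CPM in shRNA hearts of batch LC, against 14, 17.4 and 19.6 CPM in controls, and 122, 139.8 and 135 CPM in shRNA hearts of batch LA, against 20.9, 24.0 and 18.8 CPM in controls. The gap between the groups was wide in both batches, at a log2 change of 2.65 ± 0.16 in batch LC (adjusted p = 3.06e-11) and 2.64 ± 0.16 in batch LA (adjusted p = 3.14e-11). Meox1 levels in lamin C hearts were 29.7, 23.4 and 33.0 CPM, a log2 change of -1.89 ± 0.15 against shRNA hearts (adjusted p = 4.02e-09) and 0.76 ± 0.16 against controls (adjusted p = 0.00312). Those in lamin A hearts were 93.9, 82.6 and 103 CPM, a log2 change of -0.50 ± 0.14 against shRNA hearts (adjusted p = 0.0117) and 2.14 ± 0.16 against controls (adjusted p = 2.24e-09). The fall in lamin A hearts was not called without their second library (adjusted p = 0.068).

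**Figure D2:**
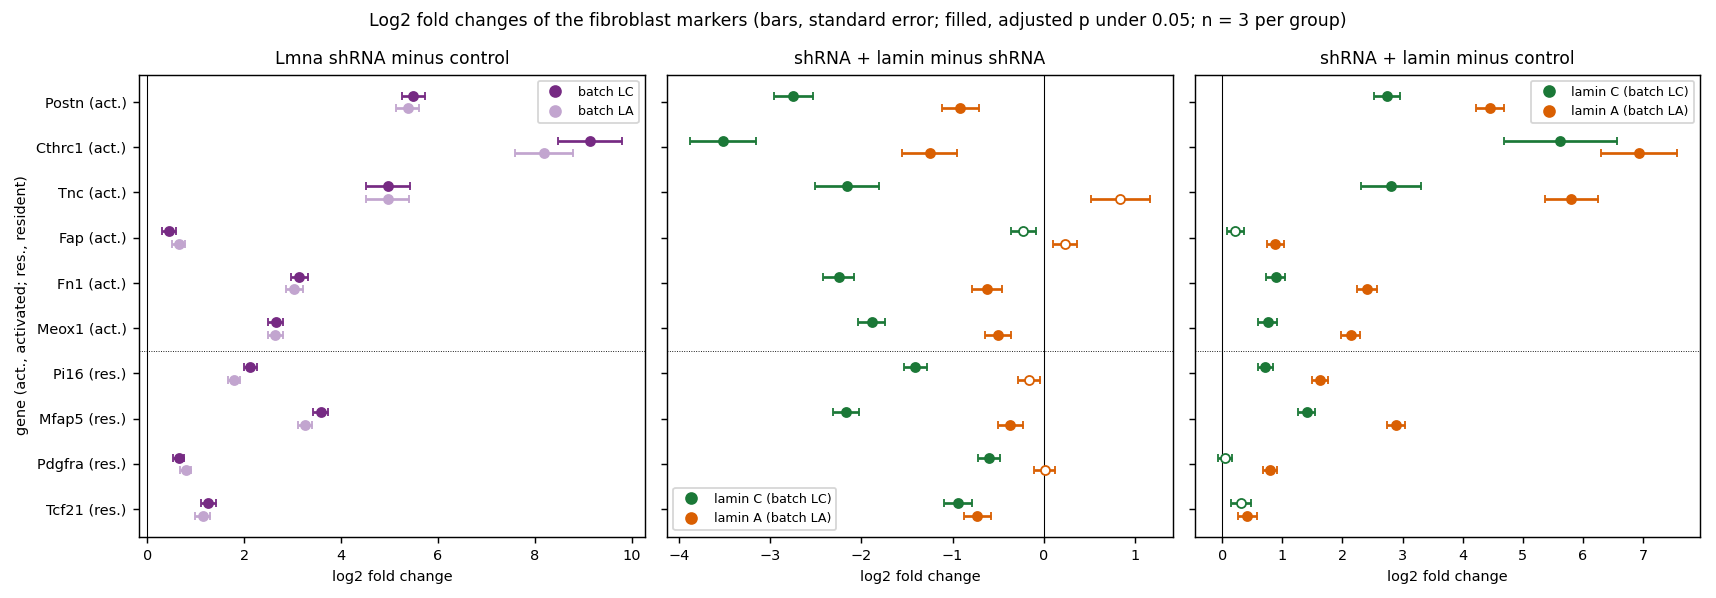
Log2 fold changes of the 10 markers with standard errors, from left to right shRNA hearts minus controls, lamin hearts minus shRNA hearts and lamin hearts minus controls; filled points had an adjusted p under 0.05. Against shRNA hearts, lamin C values run from -3.52 for Cthrc1 to -0.23 for Fap, and lamin A values from -1.25 for Cthrc1 to 0.84 for Tnc.

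Among the resident markers, Pdgfra encodes the alpha receptor for platelet-derived growth factor, which is found on nearly all cardiac fibroblasts. It had 68.8, 75.6 and 87.9 CPM in shRNA hearts of batch LC, against 40.8, 46.6 and 61.2 CPM in controls, and 88.5, 87.8 and 91.4 CPM in shRNA hearts of batch LA, against 50.4, 53.5 and 50.8 CPM in controls. The third shRNA library of batch LC, low for the activated markers, was the highest of its group for Pdgfra. The log2 change was 0.64 ± 0.12 in batch LC (adjusted p = 8.37e-05) and 0.79 ± 0.12 in batch LA (adjusted p = 7.94e-06). The lamin C libraries stood at 54.6, 45.2 and 53.2 CPM, below the shRNA hearts (log2 change -0.60 ± 0.12, adjusted p = 2.17e-04) and within the range of controls (log2 difference 0.04 ± 0.12, adjusted p = 0.863, 95% interval -0.21 to 0.30). The lamin A libraries stood at 88.3, 81.1 and 99.9 CPM, which overlapped the shRNA hearts (log2 difference 0.01 ± 0.11, adjusted p = 0.966, 95% interval -0.24 to 0.26; -0.19 without TMM scaling) and lay 0.80 ± 0.12 above controls (adjusted p = 1.36e-05).

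Tcf21 is a basic helix-loop-helix transcription factor that fibroblasts of the mouse heart need to arise in the embryo and that resident fibroblasts keep. It had 20.2, 22.9 and 17.1 CPM in shRNA hearts of batch LC, against 7.09, 8.53 and 9.59 CPM in controls, and 25, 18.2 and 17.5 CPM in shRNA hearts of batch LA, against 9.80, 8.59 and 9.09 CPM in controls. The groups did not overlap, and the log2 change was 1.26 ± 0.16 in batch LC (adjusted p = 8.84e-07) and 1.14 ± 0.16 in batch LA (adjusted p = 2.78e-06). Tcf21 had 11.7, 8.25 and 11.5 CPM in lamin C hearts, which overlapped the controls, with a log2 change of -0.94 ± 0.15 against shRNA hearts (adjusted p = 3.1e-05) and a difference of 0.32 ± 0.16 from controls (adjusted p = 0.217). It had 12.6, 10.8 and 13.2 CPM in lamin A hearts, a log2 change of -0.73 ± 0.15 against shRNA hearts (adjusted p = 9.89e-04). These hearts stayed 0.42 ± 0.16 above controls (adjusted p = 0.0386). That call was lost in 5 of the 6 fits that left out 1 library of the groups compared (adjusted p = 0.0526 to 0.128). It held without the second lamin A library, and was lost without both controls numbered 3 (0.41, adjusted p = 0.0782).

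Pi16, peptidase inhibitor 16, is a secreted protein of adventitial fibroblasts. It had 379.7, 314 and 348 CPM in shRNA hearts of batch LC, against 71.0, 75.1 and 92.5 CPM in controls, and 340.3, 294 and 305 CPM in shRNA hearts of batch LA, against 94.1, 95.3 and 82.0 CPM in controls. These were tight groups with a wide gap, at a log2 change of 2.13 ± 0.13 in batch LC (adjusted p = 2.94e-11) and 1.79 ± 0.13 in batch LA (adjusted p = 3.16e-10). Levels of 152, 109 and 131 CPM in lamin C hearts lay between the shRNA hearts and the controls, with a log2 change of -1.41 ± 0.12 against shRNA hearts (adjusted p = 1.33e-08) and 0.72 ± 0.12 against controls (adjusted p = 6.66e-04). Levels of 266, 246 and 327 CPM in lamin A hearts overlapped the shRNA hearts, at a log2 difference of -0.16 ± 0.12 (adjusted p = 0.345). Without TMM scaling this difference was -0.36 and was called (adjusted p = 0.0277). Against controls it was 1.63 ± 0.13 (adjusted p = 4.67e-09).

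Mfap5 encodes a glycoprotein of elastin-associated microfibrils. It had 346, 287 and 272 CPM in shRNA hearts of batch LC, against 23.1, 24.8 and 28 CPM in controls, and 307, 275 and 275 CPM in shRNA hearts of batch LA, against 32.2, 31.5 and 25.7 CPM in controls. Of the resident markers it had the largest change in both batches, at 3.58 ± 0.15 on the log2 scale in batch LC (adjusted p = 5.46e-13) and 3.26 ± 0.15 in batch LA (adjusted p = 1.4e-12), more than Fn1 and Meox1 among the activated markers. In lamin C hearts Mfap5 had 80.0, 54.9 and 65.9 CPM, a log2 change of -2.17 ± 0.14 against shRNA hearts (adjusted p = 2.63e-10) and 1.40 ± 0.14 against controls (adjusted p = 3.72e-06). In lamin A hearts it had 219, 181 and 264 CPM, a log2 change of -0.37 ± 0.13 against shRNA hearts (adjusted p = 0.0445) and 2.89 ± 0.15 against controls (adjusted p = 3.71e-11). The fall in lamin A hearts was at the edge of the threshold and was lost in 5 of the 6 fits that left out 1 library of the groups compared (adjusted p = 0.0675 to 0.237), all but that without the third lamin A library.

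The shRNA effect was compared between the batches. The difference between the shRNA effect in batch LC and that in batch LA was called for 0 of 10 members by edgeR, with 0 of 10 at an unadjusted p under 0.05 and 0 by DESeq2. Of all 17876 genes, edgeR called 1 (0.00559%), 1143 had an unadjusted p under 0.05 and DESeq2 called 5. The 0 of 10 lie near these shares and are not read as a result about the members. For Postn that difference was 0.12 on the log2 scale with a 95% interval of -0.51 to 0.75, for Tnc 0.00 with an interval of -0.99 to 0.99, and for Pi16 0.34 with an interval of -0.04 to 0.71. The intervals span differences of either sign for each of these genes, so equal effects were not shown. Between the controls of batch LC and those of batch LA, 0 of 10 members were called by edgeR, with 0 of 10 at an unadjusted p under 0.05 and 0 by DESeq2. Of all 17876 genes, edgeR called 0.106% (0.0615% higher and 0.0448% lower in batch LC), 2064 had an unadjusted p under 0.05 and DESeq2 called 194. These 0 of 10 are likewise not read as a result. The controls did not overlap for 1 of 10 members (Cthrc1, at the counts given above), where 14.6% of genes did not.

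Against shRNA hearts, lamin C hearts had 9 of 10 markers called lower and 0 called higher, with Fap as the exception, where 28.4% of all genes were called lower, 25.7% higher and 54.1% in either direction. The groups did not overlap for 9 of 10 members and for 60.4% of genes, and the median log2 change was -2.02 for the members and -0.04 for all genes. By library totals 51.5% of genes were called lower and 13.1% higher. On that scale Fap too was called lower (log2 change -0.54, adjusted p = 0.00247), as it was when the third shRNA library was left out (adjusted p = 0.0442). Lamin A hearts had 6 of 10 markers called lower (Postn, Cthrc1, Fn1, Meox1, Mfap5 and Tcf21) and 0 called higher, where 13.7% of all genes were called lower, 16.1% higher and 29.8% in either direction. The groups did not overlap for 7 of 10 members (the 6 called and Tnc) and for 45.2% of genes, and the median log2 change was -0.43 for the members and 0.00 for all genes. By library totals 34.7% of genes were called lower and 7.2% higher, and 7 of 10 members were called lower, Pi16 being the added one.

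Against controls, lamin C hearts still had 7 of 10 markers called higher, where 8.87% of all genes were called higher, 6.18% lower and 15% in either direction. The 3 that were not called were Fap, Pdgfra and Tcf21, and these 3 were also the members whose lamin C and control libraries overlapped, where 30.1% of genes did not overlap. By library totals 16.1% of genes were called higher and 1.6% lower, and 7 of 10 members were called. Lamin A hearts had 10 of 10 markers called higher than controls and 10 of 10 without overlap, where 24.1% of all genes were called higher, 22.1% lower and 46.2% in either direction, and 56% did not overlap. By library totals 42.9% of genes were called higher and 9.8% lower, and 10 of 10 members were called.

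The effects of the 2 lamins were compared directly, as the change from shRNA hearts in lamin C hearts minus the change from shRNA hearts in lamin A hearts. This difference was called for 8 of 10 members, all with the lower value for lamin C, where 9.9% of genes were called in that direction, 8.84% in the other and 18.7% in either. By library totals these were 15.4% and 5.2% of genes, and 9 of 10 members were called, with Fap added. It was -3.00 ± 0.48 on the log2 scale for Tnc (adjusted p = 2.83e-04), -2.26 ± 0.47 for Cthrc1 (adjusted p = 0.00231), -1.83 ± 0.29 for Postn (adjusted p = 2.34e-04) and -1.81 ± 0.19 for Mfap5 (adjusted p = 1e-05). Fn1, Meox1, Pi16 and Pdgfra had differences between -1.62 and -0.61. For Tcf21 the difference was -0.21 ± 0.21 (adjusted p = 0.547, 95% interval -0.68 to 0.25) and for Fap -0.46 ± 0.19 (adjusted p = 0.102). Tcf21 was thus the resident marker for which a difference between the lamins was not called.

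The distance left to the controls was compared in the same way, as lamin C hearts minus their controls less lamin A hearts minus their controls. It was lower for lamin C in 8 of 10 members, where 7.35% of genes were called in that direction, 7.29% in the other and 14.6% in either, and by library totals 13.3% and 3.8%. The values were -3.00 ± 0.74 on the log2 scale for Tnc (adjusted p = 0.0101; 0.0771 without the 2 controls numbered 3), -1.71 ± 0.29 for Postn (adjusted p = 7.41e-04) and -0.66 ± 0.20 for Fap (adjusted p = 0.0324, lost in 7 of 12 fits that left out 1 library). Cthrc1, with few counts in controls, had -1.31 ± 2.33 (adjusted p = 0.772). With limma on FPKM this Cthrc1 difference was called, at -2.03 with a pseudocount of 0.1 (adjusted p = 0.0275) and -1.9 with a pseudocount of 1 (adjusted p = 0.00983). Tcf21 had -0.10 ± 0.23 (adjusted p = 0.829). Total Lmna RNA, of the heart and the vectors together, was not matched, at a mean of 1252 CPM in lamin C hearts and 531 CPM in lamin A hearts. Lamin protein was not measured here.

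**Figure D3:**
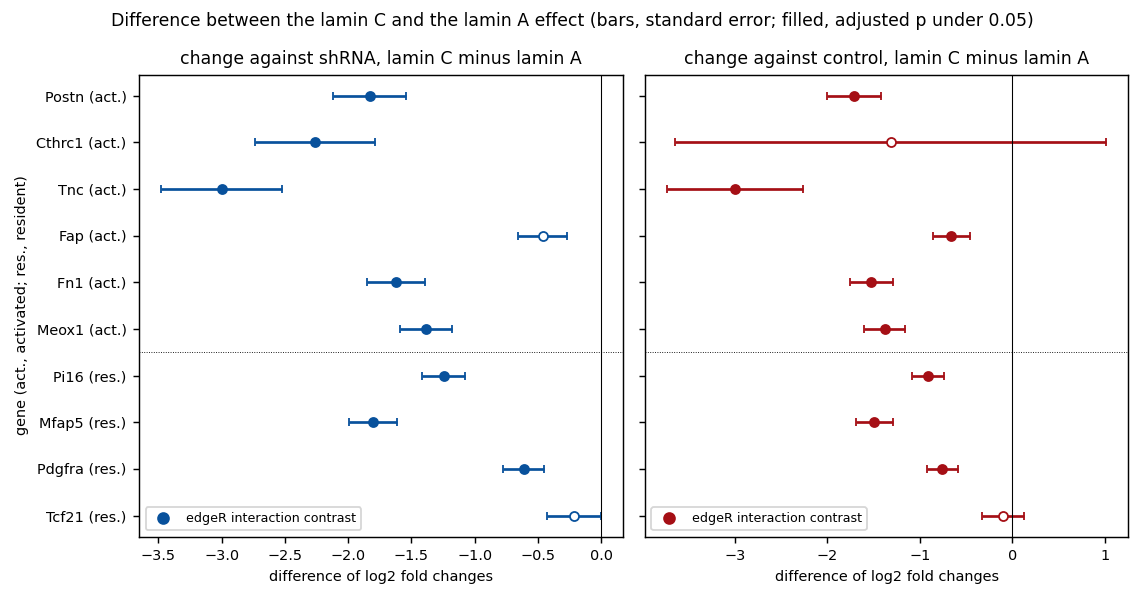
Difference between the lamin C and the lamin A effect for each marker (log2 units, with standard error), for the change from shRNA hearts on the left and from controls on the right; filled points had an adjusted p under 0.05. All points on both sides lie below 0, from -3.00 for Tnc to -0.21 for Tcf21 on the left.

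Between genes, levels were compared per length as FPKM, fragments scaled to gene length and to a library size that lay 1.02 to 1.03 times the TMM-scaled one. In controls Pi16 led the members, at 19.5 ± 2.81 FPKM in batch LC and 22.2 ± 1.77 FPKM in batch LA (SD, n = 3 each), and Cthrc1 came last at 0.0429 ± 0.0223 and 0.0880 ± 0.0261 FPKM. Behind Pi16 the control means of Meox1, Mfap5, Postn and Fn1 lay between 6.25 and 9.31 FPKM, and the libraries of neighbours in that order overlapped. In shRNA hearts Postn led, at 289 ± 65.4 FPKM in batch LC and 312 ± 20.9 FPKM in batch LA, several times the level of Pi16 and Mfap5, which followed at means of 76.4 to 84.7 FPKM with overlapping libraries. Postn also led in lamin C hearts, at 43.2 ± 14.1 FPKM against 32.0 ± 5.15 FPKM for Pi16, where the libraries of the 2 genes overlapped, and in lamin A hearts, at 165 ± 31.4 FPKM against 68.3 ± 10.2 FPKM, where they did not. Fap was last in the shRNA and lamin groups, at means of 1.22 to 1.77 FPKM. Tnc held the sixth place in lamin A hearts at 17.7 ± 0.809 FPKM, ahead of Cthrc1, whereas Cthrc1 stood ahead of Tnc in shRNA hearts without overlap and in lamin C hearts by mean alone, with overlapping libraries.

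To set the markers against a gene found on most fibroblasts, each was divided by Pdgfra within a library (FPKM ratios, chosen with the values known and not tested). Postn relative to Pdgfra was 39.5 ± 12.7 in shRNA hearts and 1.34 ± 0.0962 in controls of batch LC, and 36.0 ± 2.86 in shRNA hearts and 1.5 ± 0.0425 in controls of batch LA. It was 8.56 ± 2.10 in lamin C hearts and 18.8 ± 1.82 in lamin A hearts. Postn was thus set apart from Pdgfra in every shRNA and lamin library. Fap relative to Pdgfra was 0.193 ± 0.0484 in shRNA hearts and 0.226 ± 0.0666 in controls of batch LC, and 0.173 ± 0.0154 in shRNA hearts and 0.193 ± 0.0222 in controls of batch LA, with overlap in both. The ratio of Fap to Pdgfra had group means between 0.173 and 0.245 in the 6 groups. Mfap5 relative to Pdgfra was 11.1 ± 2.73 in shRNA hearts and 1.45 ± 0.156 in controls of batch LC, and 8.95 ± 0.658 in shRNA hearts and 1.61 ± 0.189 in controls of batch LA.

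A pair of ratios set lamin A hearts apart. Tnc was 11%, 12.9% and 8.82% of Postn by FPKM in lamin A hearts, against 1.92%, 3.92% and 3.77% in shRNA hearts and 4.73%, 4.47% and 3.23% in controls of the same batch. All 15 other libraries lay between 1.33% and 4.73%, below each lamin A library. Tcf21 was 61.1%, 56.6% and 56.5% of Pdgfra in lamin A hearts, against 121%, 88.6% and 81.8% in shRNA hearts and 83%, 68.6% and 76.3% in controls. Every other library was at or above 66.9%, including the lamin C hearts at 91.1%, 77.8% and 92.3%. These pairs were picked after their values were seen, so they are given as a description.

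**Figure D4:**
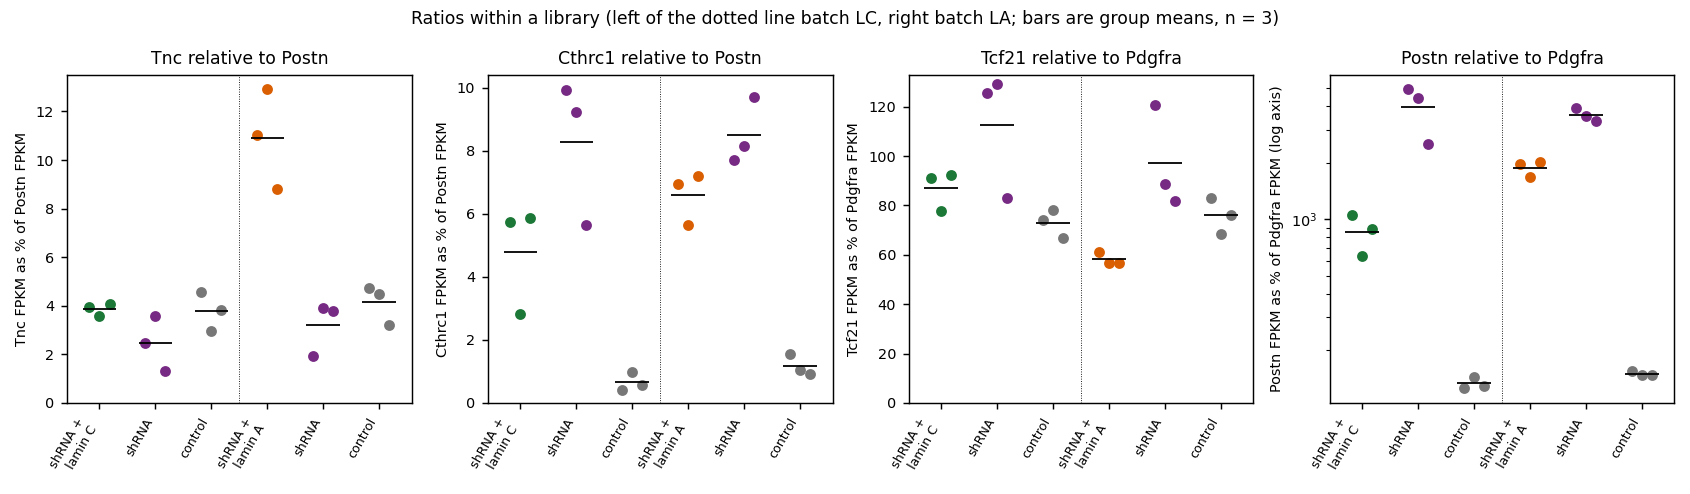
FPKM of one marker as a percentage of another within each library, with batch LC left of the dotted line and batch LA right; points are libraries and bars are means of 3. In lamin A hearts Tnc reaches 8.82% to 12.9% of Postn and Tcf21 is 56.5% to 61.1% of Pdgfra, outside the range of the other libraries, and Postn relative to Pdgfra is drawn on a log axis.

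Within groups, single libraries moved for many markers at once. In the third shRNA library of batch LC, 6 of 6 activated markers were below the mean of the other 2 libraries, by 1.75 on the log2 scale for Tnc, 1.36 for Cthrc1, 0.60 for Postn, 0.56 for Fn1, 0.56 for Meox1 and 0.40 for Fap. Of the resident markers 2 of 4 were below (Tcf21 by 0.33 and Mfap5 by 0.21), while Pdgfra was 0.28 above that mean and Pi16 0.01 above it. The same library had 17 of 20 further activated fibroblast genes below the others (median -0.23), 5 of 8 cardiomyocyte markers below (median -0.09) and 9110 of 17876 genes below. In the second lamin C library 10 of 10 markers were the lower, by 1.85 for Cthrc1, 1.01 for Tnc, 0.85 for Postn and 0.25 for Pdgfra, and 8 of 8 macrophage markers were lower too (median -0.21). In the second lamin A library 10 of 10 were lower, by 0.78 for Cthrc1, 0.46 for Postn and 0.07 for Tnc, while 1 of 8 macrophage markers was (median 0.15). The third control of batch LC stood high for 9 of 10 markers against the other 2 controls, by 0.49 for Pdgfra, 0.48 for Tnc and 0.43 for Postn, with Fap 0.26 below. Of the further activated fibroblast genes 4 of 20 were below there (median 0.46), and of the epicardial and mesothelial markers 0 of 5 (median 2.78). Without this library the number of genes called between the controls of the batches was 829, against 19 with it. The part of other cell types in these shifts was not tested.

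**Figure D5:**
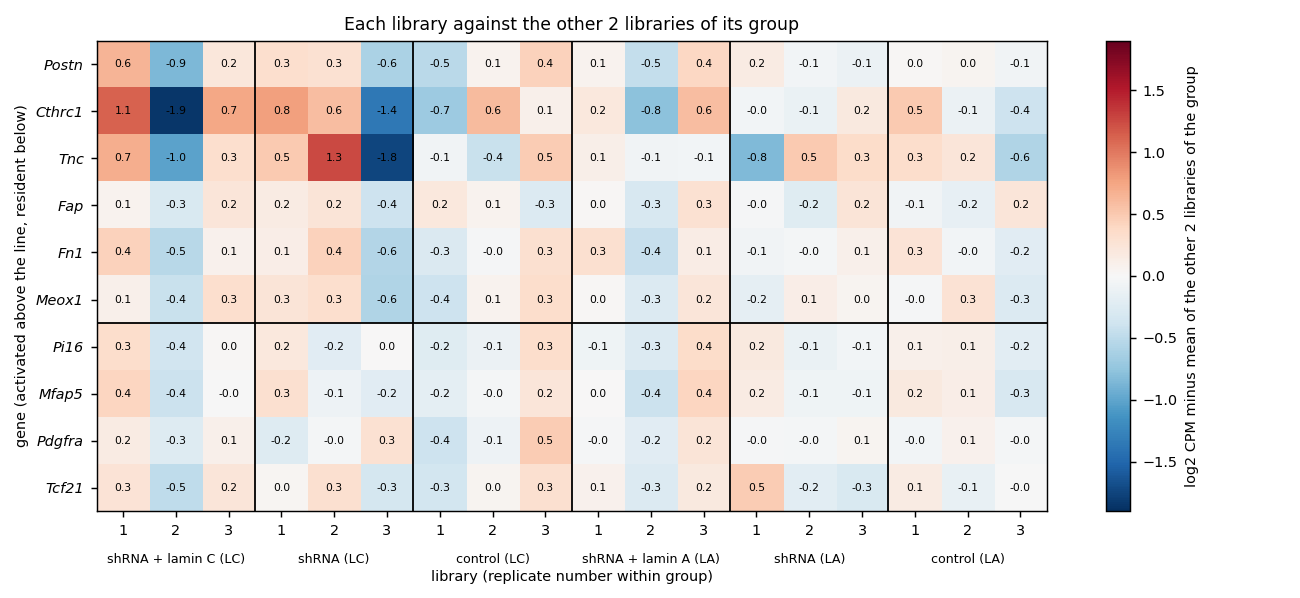
Log2 CPM of each marker in each library minus the mean of the other 2 libraries of its group, with activated markers above the line and resident markers below it. The third shRNA library of batch LC and the second lamin C and lamin A libraries are low across the activated markers, at -1.75 for Tnc, -1.85 for Cthrc1 and -0.78 for Cthrc1 at the lowest.

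Over the 18 libraries, Pearson's r of log2 CPM between members ran from 0.621 (Fap with Tcf21) to 0.996 (Postn with Cthrc1). After the group means were subtracted, r was 0.925 between Pi16 and Mfap5, 0.915 between Postn and Cthrc1 and 0.881 between Postn and Fn1. It was 0.023 between Tnc and Pdgfra, -0.156 between Fap and Pdgfra and 0.235 between Cthrc1 and Pdgfra. The points share libraries, scaling and, in the first case, the group differences, so these values only describe which markers moved together in these hearts.

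The genes most like each member over the 18 libraries were taken from 12646 protein-coding genes that averaged 1 CPM or more, by Pearson's r of log2 CPM, as a description of libraries that share their group differences. Postn was followed most closely by Ltbp2 and Thbs4 (r = 0.997 for each), a latent TGF-beta binding protein and a thrombospondin, and Cthrc1 by Thbs4 and Atp6v0a4 (0.996 and 0.994). The closest to Fn1 were the fibrillar collagen gene Col5a2 and Lhfpl2 (0.996 and 0.994), and to Meox1 Lhfpl2 and the matricellular gene Sparc (0.995 and 0.993). Tnc was closest to Cd248 and the chemokine gene Ccl2 (0.985 and 0.981), and Fap to Nudcd2 and Bmper (0.935 and 0.929). Of the resident markers, Pi16 was closest to Lox, which crosslinks collagen, and Rpl3 (0.994 for each), Mfap5 to Fstl1 and Ctsz (0.997 for each), Pdgfra to Flnc and P4ha1 (0.977 and 0.972), and Tcf21 to Garem2 and Wdr47 (0.961 for each). After the group means were subtracted, the closest were Ccdc80 and Col5a2 for Postn (0.948 and 0.947), Col12a1 and Sertad4 for Cthrc1 (0.953 and 0.904) and Clec11a and Col6a2 for Meox1 (0.947 and 0.917). They were Rilpl2 and Scd2 for Tnc (0.909 and 0.905), Ptprs and Bmper for Fap (0.856 and 0.823), Col5a1 and Fstl1 for Fn1 (0.927 and 0.923), and Nppa and Tmem43 for Pi16 (0.913 and 0.911). For Mfap5 they were Pmepa1 and Dse (0.936 and 0.905), for Pdgfra Myo1e and Dlg5 (0.926 and 0.903), and for Tcf21 Thbs3 and Abca9 (0.858 and 0.837).

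Further fibroblast genes were counted from lists. Of 20 more genes of activated fibroblasts, 20 were called higher in shRNA hearts than in controls over both batches, against 38.4% of all genes called higher, 33.8% lower and 72.2% in either direction (by library totals 64.7% higher and 15.1% lower), with a median log2 change of 3.36 against 0.05. By smallest p these were Timp1, an inhibitor of matrix metalloproteases (5.77), Lox (5.20), the collagen gene Col8a1 (4.06) and Ddah1 (3.24). In lamin C hearts 19 of 20 were called lower than in shRNA hearts (28.4% of all genes), and in lamin A hearts 15 of 20 (13.7% of all genes). Timp1 had log2 changes of -2.78 against shRNA hearts in lamin C hearts (called) and 0.40 in lamin A hearts (not called). Lox had -3.59 in lamin C hearts and -0.59 in lamin A hearts, both called. Against controls, 16 of 20 were called higher in lamin C hearts (8.87% of all genes) and 18 of 20 in lamin A hearts (24.1% of all genes), with medians of 1.2 and 2.95. The lamin C effect was the lower of the 2 for 17 of 20 genes (9.9% of all genes), with a median difference of -1.81.

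Of 20 more genes of resident fibroblasts, 14 were called higher and 5 lower in shRNA hearts over both batches (38.4% and 33.8% of all genes), with a median of 0.73. Those named by smallest p were Col14a1 (2.99) and Lum (1.96), which encode a fibril-associated collagen and a collagen-binding proteoglycan, the surface antigen gene Ly6a (1.12), and Scara5, a ferritin receptor (-1.91). Lamin C hearts had 12 of these 20 called lower and 4 higher than shRNA hearts, where 28.4% and 25.7% of all genes were, with Scara5 at 1.86. Lamin A hearts had 6 lower and 3 higher, where 13.7% and 16.1% of all genes were, with Scara5 at 0.93. In a list of 20, these counts called higher lie near the shares of all genes and are not read as a result. Against controls, 10 were called higher and 0 lower in lamin C hearts (8.87% and 6.18% of all genes), and 13 higher and 5 lower in lamin A hearts (24.1% and 22.1% of all genes). The list held genes called in opposite directions in shRNA hearts, as did all genes. The 5 of 20 called lower do not exceed the 33.8% of all genes and are not read as a result. The 5 that were lower, named after their values were seen, were Inmt, Scara5, Hsd11b1, Ackr3 and Gsn.

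Of 26 genes for signals and regulators that act on fibroblasts, 17 were called higher and 6 lower in shRNA hearts over both batches (38.4% and 33.8% of all genes), with a median of 0.54. Ctgf, a matricellular target of TGF-beta and YAP signalling, had 3.75, the ligands Tgfb2 and Tgfb3 had 2.78 and 2.37, and Itgav, an integrin chain that helps free TGF-beta, had 1.16. Of the ligands of the Pdgfra receptor, chosen after their values were seen, Pdgfc had 1.6 (called higher), Pdgfb -0.42 (called lower) and Pdgfa -0.14 (not called). These calls were made with TMM scaling. In lamin C hearts 16 of 26 were called lower and 5 higher than in shRNA hearts (28.4% and 25.7% of all genes), and in lamin A hearts 9 lower and 3 higher (13.7% and 16.1% of all genes). Ctgf had -2.43 in lamin C hearts and -1.03 in lamin A hearts, and the lamin C effect was lower for 11 of 26 genes and higher for 2 (9.9% and 8.84% of all genes).

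Markers of other cell types moved in the same hearts, where over both batches 38.4% of all genes were called higher and 33.8% lower. Macrophage markers were called higher in shRNA hearts for 8 of 8 genes, with their summed level at 931 to 1017 CPM in shRNA hearts and 284 to 324 CPM in controls over both batches. C1qa, C1qb, C1qc and Cd68 had log2 changes of 1.92, 1.99, 1.80 and 2.14. Cardiomyocyte markers were called lower for 8 of 8, at sums of 23380 to 28000.0 CPM in shRNA hearts and 62290 to 67650 CPM in controls, with Tnni3 at -1.78, Pln at -1.70, Myl2 at -1.37 and Ryr2 at -1.07. Endothelial markers were called lower for 8 of 8, at sums of 642 to 834 CPM in shRNA hearts and 1046 to 1316 CPM in controls. Kdr had -1.11, Tie1 -0.88, Cdh5 -0.76 and Emcn -0.46. By library totals 64.7% of all genes were called higher and 15.1% lower. The median log2 change of all genes was 0.48 on that scale, against 0.05 with TMM scaling. Calls of these lists by library totals are not given here, so falls as small as that of Emcn may rest on the scaling. Of 8 genes listed for pericytes and smooth muscle 4 were called higher and 4 lower, Cnn1 at 4.35, Des at 0.90, Kcnj8 at -1.0 and Rgs5 at -0.81. Their sum was 4054 to 4982 CPM in shRNA hearts and 2952 to 3181 CPM in controls. The median log2 change of the list was -0.09, so the sum does not show a rise of the list as a whole. The part of these cell types in the marker changes was not tested.

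Lamin C hearts had summed macrophage markers at 446 to 522 CPM and cardiomyocyte markers at 52230 to 53910 CPM, and lamin A hearts had 772 to 869 CPM and 36690 to 39880 CPM. Epicardial and mesothelial markers were near the floor, with Wt1 the sole gene of the list at 1 CPM or more in controls and Upk3b, Krt19, Lrrn4 and Upk1b at 0 counts in at least 1 library. Their sum was 3.86 to 7.03 CPM in shRNA hearts and 4.22 to 12.7 CPM in controls. With TMM scaling 1 of the 5 tested, Wt1, was called (-0.32). Of 6 Schwann cell markers 1 was called higher, S100b (1.28), and 2 lower, among them Kcna1 (-1.20), and the list had a sum of 11.4 to 13.3 CPM in shRNA hearts and 10.98 to 15.04 CPM in controls.

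By the coordinates of the count table (mm10), Postn lies at chr3:54361109-54391037 on the plus strand, Tnc at chr4:63959785-64047015 on the minus strand and Tcf21 at chr10:22817281-22820174 on the minus strand, and all 10 members are annotated as protein coding. No 2 members are on 1 chromosome. Genes on the opposite strand overlap Tnc (8030451A03Rik, 0 to 6 counts a library), Fn1 (Apol7d, 1 to 28), Meox1 (Gm11551, 0 to 2), Pdgfra (Gm42802, 0 to 11, and Gm42803, 0 to 2) and Tcf21 (Gm10824, 8 to 57). Strand use in counting is not stated in the labels, so reads of these overlaps are uncertain. They are few beside the members' own counts for Fn1, Meox1 and Pdgfra. They weigh more for Tnc and Tcf21, which had as few as 44 and 217 counts in a control library. Mir7025 also overlaps Pdgfra, on the same strand (0 to 11). Of the nearest protein-coding neighbours, those that passed the filter moved in both directions over both batches. Etv4, an ETS factor gene 92138 bases from Meox1, had a log2 change of 3.23 ± 0.19 (adjusted p = 7.32e-12), and Tnfsf8, 98437 bases from Tnc, 5.22 ± 0.47 (adjusted p = 6.2e-09) at 0 to 44 counts. Trpc4 next to Postn had -1.16 ± 0.32 (adjusted p = 0.00306), Fzd6 next to Cthrc1 -0.51 ± 0.03 (adjusted p = 8.17e-11) and Kit next to Pdgfra -0.63 ± 0.14 (adjusted p = 3.91e-04).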

How the data were processed

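RNA of the heart apex was measured in 18 libraries. Per the labels' protocols, polyadenylated RNA was selected with poly-T beads and made into directional libraries by the dUTP method with the NEBNext Ultra II kit. The submitters' processing notes list, without roles, DESeq2 1.20.0, StringTie 1.3.3b, HISAT2 2.0.5 and featureCounts 1.5.0-p3, and mm10 as genome build. Counts per gene were deposited by the authors as whole numbers. FPKM values were deposited by the authors beside them, and set against the counts they imply library sizes of 1.02 to 1.03 times the TMM-scaled ones.

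Genes were filtered with filterByExpr and tested on the counts in R 4.3.3 by the quasi-likelihood test of edgeR 4.0.16. TMM factors were used, and a single fit held the 6 groups of 3 libraries with 12 residual degrees of freedom. Calls were made at a Benjamini-Hochberg adjusted p under 0.05 over all genes tested. Standard errors were the log2 change over the root of F, and 95% intervals used 12 degrees of freedom. For differences of differences these errors did not follow from those of their parts, so they and their intervals are rough. For the Cthrc1 distance to controls the error was 2.33, where the parts had 0.94 and 0.63. For the Tnc shRNA effect between batches it was 0.456, where the parts had 0.461 and 0.441. The procedure was tested on simulated data. The members, the gene lists and the tests were chosen with earlier results of these data known, so no list here is independent support. Genes named were the members, Lmna, up to 4 called genes of each list by smallest p over both batches, the 2 closest genes of each member by r of log2 CPM (prior count 2), and overlapping and neighbouring genes. A few more list genes are named where the text says that their values had been seen. Replicates of a group were not duplicates (chi-square per degree of freedom 5.98 to 39.3). Alternatives were DESeq2 1.42.0, RLE size factors, library totals, no filter, limma 3.58.1 on log2(FPKM + 1) and log2(FPKM + 0.1), mitochondrially encoded genes removed, a fit of only the compared groups, a block for the replicate number, each library left out, and both controls numbered 3 left out, since their column names carry numbers apart from their batches. Coordinates of 9 of 10 members were the same in GENCODE M21 (Pi16 differed). Protein sequences and a genome were not used here. The value of 1 gene of the lists is not reported here.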

Additional observations from a re-analysis of the deposited data

Results flagged for a closer look

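The lamin C effect and the lamin A effect, each against shRNA hearts of its own batch, differed by a direct test in edgeR for 8 members, in log2 units with lamin C minus lamin A: Tnc -3.00, Cthrc1 -2.26, Postn -1.83, Mfap5 -1.81, Fn1 -1.62, Meox1 -1.39, Pi16 -1.25 and Pdgfra -0.61, at adjusted p between 1e-05 and 0.0125. The distance left to the controls also differed by a direct test for 8 members: Tnc -3.00, Postn -1.71, Fn1 -1.52, Mfap5 -1.49, Meox1 -1.38, Pi16 -0.91, Pdgfra -0.76 and Fap -0.66, at adjusted p between 1.11e-04 and 0.0324. In each case the value was lower for lamin C. Of the distances to controls, the Fap call was lost in 7 of 12 fits that left out 1 library. The Tnc call was lost without both controls numbered 3 (adjusted p = 0.0771 in edgeR). Lamin, batch and Lmna level cannot be told apart in these differences.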

How the results depend on the processing

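Of the members' values under other settings, 1895 kept their direction and their side of the threshold, 13 newly passed it, 25 lost it and 36 changed sign. In shRNA hearts against controls no member changed direction in either batch, and Fap in batch LC alone lost its call. With 3 libraries a group and between 1 and 6 Cthrc1 counts per control library, differences of differences are the least certain values.

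The replicate numbers did not pair the libraries (18 correlations of deviations from group means, from -0.05 to 0.06, with 8 of 36 comparisons best between equal numbers). With the replicate number as a block, 10, 9 and 6 members were called for shRNA in each batch, lamin C and lamin A, as without it, and the Tnc difference between the batches' shRNA effects was -0.0602.

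Genes called between the 2 sets of controls numbered 19, against 194 with DESeq2, 640 without both controls numbered 3, 0 with the compared groups alone, 5 and 0 with limma on log2(FPKM + 0.1) and log2(FPKM + 1), 647 with no filter, 1 with the block and 0 to 829 with 1 library left out. With no filter, 3 members were called there. The fit with no filter gave an adjusted p out of scale with other settings for Tnc between lamin A and shRNA hearts (4.54e-29 in edgeR). Its counts, here and in the next sentence, are therefore not read as support. For the difference between the batches' shRNA effects 1 gene was called, against 5 with DESeq2, 24 without both controls numbered 3, 0 with the compared groups alone, 247 with no filter, 0 with the block and 0 to 47 with 1 library left out. Between lamin C hearts and controls 2690 genes were called, and 1507 to 2680 with 1 library left out, the lowest without the first lamin C library. For the difference in distance to controls 2616 genes were called, and 1713 without both controls numbered 3.

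The values that changed sign were not called in either fit. For the difference between the batches' shRNA effects these were Cthrc1 (-0.13 with limma on log2(FPKM + 1), against 0.95), Meox1 (-0.0105 with library totals, -0.0151 and -0.0408 with limma on log2(FPKM + 0.1) and log2(FPKM + 1)), Pdgfra (0.0413 without both controls numbered 3) and Tnc (-0.0049 with DESeq2, -0.0207 with library totals, -0.27 and -0.39 with limma on log2(FPKM + 0.1) and log2(FPKM + 1)). With 1 library left out the ranges were -0.048 to 0.27 for Fn1, -0.12 to 0.17 for Meox1, -0.27 to 0.0322 for Pdgfra, -0.0324 to 0.30 for Postn and -0.44 to 0.39 for Tnc. Pdgfra between lamin A and shRNA hearts was 0 with the compared groups alone, -0.19 with library totals and -0.0727 to 0.0799 with 1 library left out. It was -0.0807 to 0.22 between lamin C hearts and controls and -0.24 to 0.0636 between controls with 1 library left out. Tcf21 in the difference in distance to controls was 0.0137 without both controls numbered 3 and -0.21 to 0.05 with 1 library left out. The cause was not tested.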
